A study of Sus scrofa with 9 samples.

Results

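The spleens of Ningxiang pigs, an indigenous Chinese breed, were compared between postnatal day 210 and postnatal day 30 for every entry that carries the name of a pig miRNA. Each age had 3 small RNA libraries, made from total RNA of the spleen. A further 3 libraries of day 90 entered through the filter and the estimate of the spread, and are given beside the results as values. The labels name no treatment, sex or genotype beyond the breed, and do not say whether the libraries of 1 age were taken from separate animals, and the p-values therefore measure the spread between these libraries, which may be technical. The table was read by its library columns and by names with the pig prefix, which gave 453 pig miRNA entries of 975 in all (the other 522 are candidates predicted by the authors). Of the 453 entries 406 had a value of 5 or more in 3 or more of the 9 libraries and were tested. The other 47 were not tested, and 8 of the 453 were listed at 0 in all 6 libraries of both ages. Names are written without the species prefix, and a suffix after a _ sign, by which the table tells length or sequence variants apart, is kept only where a name occurs more than once. The endings p5 and p3 mark arms and follow the table.

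A miRNA is a short RNA cut from a hairpin precursor that guides silencing proteins to messenger RNAs, chiefly through its seed, bases 2 to 8 from the 5′ end. miRNAs that share a seed form a family with overlapping targets, and the arms of 1 hairpin carry different seeds. The spleen holds B and T cells in its white pulp and macrophages, red cells, endothelium and contractile stroma in its red pulp, and each of these has miRNAs by which it is known. In a bulk library, fewer cells of a type and less of a miRNA per cell cannot be told apart.

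The sequences on which the comparison turned are shown as the table lists them, as DNA letters from 5′ to 3′, with the seed in capitals. The miR-15/16 seed was held by 6 tested entries, of which miR-195 and miR-497 rose and the other 4 were not called. Printed are the 2 that rose and the 2 most abundant of the others.
miR-195: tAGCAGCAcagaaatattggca
miR-497: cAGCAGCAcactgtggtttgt
miR-15b: tAGCAGCAcatcatggtttaca
miR-16: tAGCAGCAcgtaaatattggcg

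The miR-29 seed was held by 3 tested entries, and all 3 had higher mean values at day 210, with miR-29a-3p called.
miR-29a-3p: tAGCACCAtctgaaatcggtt
miR-29b: tAGCACCAtttgaaatcagt
miR-29c: tAGCACCAtttgaaatcggtt

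The next set holds the other called miRNAs that the results lead with, each with a seed of its own among them: the lymphocyte miRNA miR-150, the smooth muscle miRNA miR-145-5p, the abundant miR-99a-5p, both arms of the miR-664 hairpin, the red cell miRNA miR-486, and miR-371-5p, which was listed at 0 at the younger ages.
miR-150: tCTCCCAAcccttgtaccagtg
miR-145-5p: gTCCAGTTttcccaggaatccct
miR-99a-5p: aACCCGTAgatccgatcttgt
miR-664-3p: tATTCATTtatctcccagcctaca
miR-664-5p: cAGGCTAGgagaagtgattgga
miR-486: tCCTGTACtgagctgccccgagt
miR-371-5p: aCTCAAACtgtgggggcacttt

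The last sets are printed because the sequence limits what the name says. The entry named miR-107 has 21 bases, all of which are also the first 21 bases of the miR-103 entry, so these letters do not tell the pair apart. The entry named miR-133b shares a run of 20 of its 21 bases with miR-133a-3p. The entry named let-7c carries A17G in its table name (the annotated base, the position from the 5′ end, the base of the entry), and its letters are those that human let-7b has; it is called the let-7c entry here.
miR-107: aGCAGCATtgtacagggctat
miR-103: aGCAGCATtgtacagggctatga
miR-133b: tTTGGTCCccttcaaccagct
miR-133a-3p: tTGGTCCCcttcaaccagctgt
let-7c: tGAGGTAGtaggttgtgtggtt
let-7a: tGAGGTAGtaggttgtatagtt

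Per the file headers the values are normalised read numbers, scaled per library by the authors. The commonest low value of each library was taken to stand for 5 reads, and on that assumption the day 30 libraries held 7257044, 6900432 and 8937977 reads and the day 210 libraries 7014097, 6101939 and 4501538 (replicates 1, 2 and 3). The number of pig miRNA entries above 0 was 409 ± 9.87 at day 30 and 380 ± 7 at the older age (mean ± SD, n = 3; exact two-sided permutation p = 0.1, the smallest that 3 against 3 allows). The value-weighted GC content of the pig miRNAs was 47.7 ± 0.261% at day 30 and 47.8 ± 0.616% in the older libraries (exact permutation p = 0.8), and the 10 most abundant pig miRNAs of each library held 54.6 ± 0.371% and 58.5 ± 1.28% of all values (exact permutation p = 0.1). Markers of blood and stroma were present at both ages. miR-142, known from all blood cell lineages, gave 16511, 10765 and 14342 for its 5′ arm mir-142-p5 at day 30 and 12765, 11139 and 23842 at day 210, and the liver miRNA miR-122-5p stood between 105 and 154 in these 6 libraries.

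The comparison asks which spleen miRNAs differ between piglets of day 30 and pigs of day 210. The lymphocyte miRNA miR-150 (1 of 3 entries of its list called), the collagen-silencing miR-29a-3p (1 of 6), miR-195 and miR-497 (2 of the 6 with their seed) and the smooth muscle miRNA miR-145-5p (1 of 4) rose. miR-486 and mir-144-p5 (2 of 4 red cell entries, while the abundant miR-451 did not pass), miR-107, miR-504, miR-9841-3p and a set of scarce entries fell. The test was limma on log2(value + 1), with Benjamini-Hochberg adjustment over all 630 entries tested (the 406 pig miRNAs and 224 candidates), and an entry is called at an adjusted p under 0.05. Of the 406 pig miRNAs 43 passed: 22 were higher at day 210 and 21 were lower. Before adjustment 131 had a p under 0.05. The share called was 10.6% of the pig miRNAs (5.42% higher and 5.17% lower), against 9.21% of all entries tested (4.6% in each direction). In all 43 called entries the libraries of both ages did not overlap. Among all 406 the libraries did not overlap in 47 entries in the higher direction (11.6%) and 84 in the lower (20.7%), which is 32.3% together, against 30.2% of all entries tested (12.1% and 18.1%). The median log2 fold change of the 406 was -0.14, with quartiles of -0.53 and 0.27. With all libraries rescaled to the same sum the median was -0.38 and 15 entries were called higher and 57 lower, and with a correction for GC content it was 0.15 with 63 higher and 20 lower. The count rested on single libraries. Leaving out day 30 replicate 1 gave 7 calls, and leaving out replicate 3 of that age gave 17. Leaving out day 90 replicate 1 gave 27. At day 210 the fit lacking replicate 2 made 20 calls and that lacking replicate 3 made 77. The calls that stayed under all 21 alternatives were those of miR-664-3p, miR-195, miR-29a-3p, miR-497 and miR-150. That of miR-371-5p stayed under the 18 that tested it. But miR-371-5p passed the filter only through its day 210 values, the side on which it is high. Its p and its calls under those 18 are therefore no separate support for a rise. No fit without a day 210 library could test it.

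**Figure D1:**
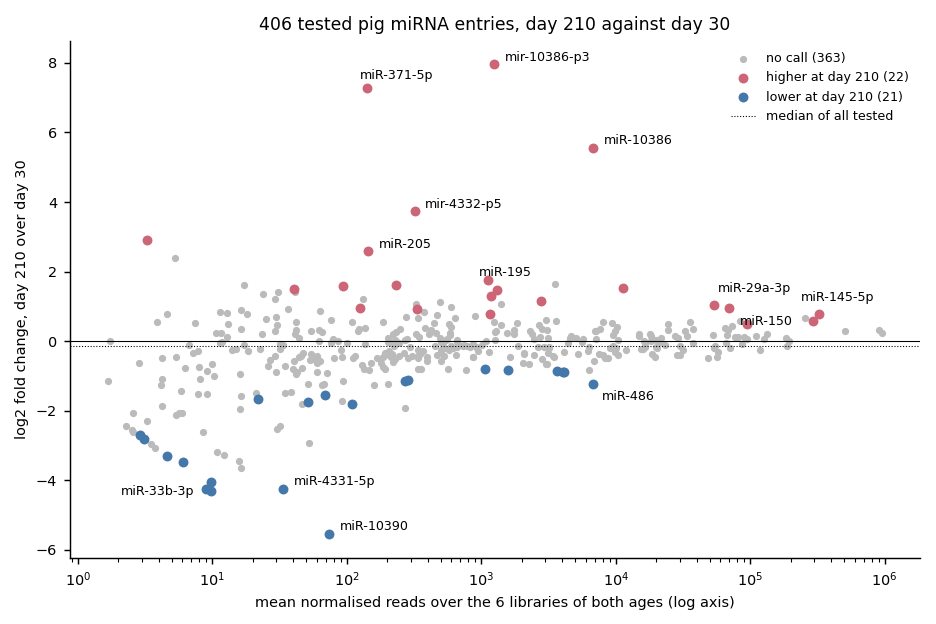
Each point is 1 of the 406 tested pig miRNA entries, with its mean normalised reads over the 6 libraries of both ages on a log axis and its log2 fold change (day 210 over day 30). The 22 entries called higher span the whole range of levels, while none of the 21 called lower has a mean of 10000 or more, and the dotted line is the median of -0.14.

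The calls were spread unevenly over the levels. Among 70 entries with a mean of at least 10000 over both ages 6 were called higher and 0 lower, with a median log2 fold change of 0.086 and a median SE of 0.16. Among 43 tested entries with a mean under 10 there were 1 higher and 7 lower calls, a median of -1.44 and a median SE of 1.01. Between these ends the calls were 2 higher and 5 lower of 94 (mean 10 to 100), 6 and 3 of 117 (100 to 1000), and 7 and 6 of 82 (1000 to 10000). For scarce entries a listed 0 covers a wider range at day 210. There 5 reads were worth values of 5.33 to 8.0006, against 3.62 to 4.77 at day 30. All 7 falls listed at 0 in every day 210 library lost their call with the common floor described below. All 6 calls without day 30 replicate 1 in the higher direction, and the 1 in the lower, were among the 43.

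The first group of risers was abundant. miR-145-5p, transcribed with miR-143 and known from smooth muscle, had values of 231178, 238623 and 246523 in piglets of day 30, and of 410673, 502685 and 334004 by day 210 (replicates 1, 2 and 3). It rose 1.72-fold (log2 0.78 ± 0.17, adjusted p 0.0232 by limma), and its share of all values went from 3.73 ± 0.0943% to 5.50 ± 0.872%. The day 30 libraries were close together and the day 210 libraries were not, with replicate 2 the highest and replicate 3 the lowest. At day 90 it stood at 183735 ± 32934 (mean ± SD, n = 3), below both other ages. miR-145-5p stayed called under 14 of 21 alternatives. Fits that left out day 30 replicates 1, 2 and 3 and day 210 replicate 2 in turn missed the threshold (adjusted p 0.0507 to 0.0952). The threshold was also missed with the common floor, no mean-variance trend and only the ages compared (adjusted p 0.05002 to 0.0773). Its other arm, miR-145-3p, had a log2 fold change of 0.34 ± 0.15 (adjusted p 0.161).

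miR-99a-5p, whose seed is that of miR-100, was found at 200014, 256903 and 249806 in the younger libraries and 344342, 351043 and 352305 in the older. The fold was 1.49 (log2 0.58 ± 0.13, adjusted p 0.0257), and the day 210 libraries lay within a narrow band above all others. miR-99a-5p stayed called under 15 of 21 alternatives. It missed the threshold with day 30 replicates 1 and 3 and day 210 replicate 2 left out in turn (adjusted p 0.0559 to 0.101). No call was made with libraries rescaled to the same sum, no mean-variance trend and only the ages compared (adjusted p 0.0629 to 0.0851). The opposite arm miR-99a-3p had a value of 0.67 ± 0.21 on the same scale (adjusted p 0.0700) and its libraries did not overlap either. The let-7c entry, of the family that in animals restrains growth and marks maturing tissue, was found at 72183, 82357 and 79856 in the younger libraries and 109904, 118499.7 and 104509 in the older. It was 1.42-fold higher (log2 0.51 ± 0.11, adjusted p 0.0209). Of 17 tested let-7 and miR-98 entries it was the only one called, and 14 had negative log2 fold changes. Among these was let-7c-p3, by name the other arm of the hairpin, at -0.77 ± 0.34 (adjusted p 0.168). The let-7c entry stayed called under 15 of 21 alternatives. The libraries whose removal ended the call were day 30 replicates 1 and 3 and day 210 replicate 2 (adjusted p 0.0559 to 0.0931). Further fits without the call were those with libraries rescaled to the same sum, no mean-variance trend and only the ages compared (adjusted p 0.0715 to 0.0844). With libraries at the same sum the log2 value was 0.35 for miR-99a-5p and 0.27 for the let-7c entry.

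miR-150, which is made in mature B and T cells and is known for restraining the transcription factor MYB, measured 43758, 47577 and 51779 in the day 30 libraries and 89536, 95279.5 and 89681 in those of day 210. The rise was 1.92-fold (log2 0.94 ± 0.12, adjusted p 0.00388). miR-29a-3p, one of the collagen-silencing miR-29 miRNAs, measured 38355, 31813 and 35198 in the day 30 libraries and 71341, 69214 and 77751 in those of day 210, 2.08-fold (log2 1.05 ± 0.11, adjusted p 0.00220). At day 90 the means of the pair were 80084 ± 8547 and 74106 ± 1849.7. The other members of the miR-29 seed were scarcer and spread more. miR-29b had values of 104, 45.8 and 83.6 in piglets of day 30, and of 145, 116 and 301 by day 210 (log2 1.21 ± 0.41, adjusted p 0.0878), and miR-29c at 485, 237 and 321 (day 30) and 529, 403 and 825 (day 210; log2 0.75 ± 0.32, adjusted p 0.154). For miR-29b the libraries of both ages did not overlap, for miR-29c they did, and in both day 210 replicate 3 was the highest. miR-150 and miR-29a-3p stayed called under all 21 alternatives, with adjusted p of at most 0.0201 and 0.0195.

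miR-195 and miR-497 are cut from 1 primary transcript and carry the miR-15/16 seed, known for restraining cyclins. miR-195 had values of 790.1, 593 and 681 in piglets of day 30, and of 1695, 1740.3 and 2296 by day 210, a 2.77-fold rise (log2 1.47 ± 0.23, adjusted p 0.00577). miR-497 was found at 1809, 1645 and 1712 in the younger libraries and 4059.7, 3796 and 3744 in the older, 2.24-fold higher (log2 1.17 ± 0.16, adjusted p 0.00388). At day 90 they lay between, at 1044 ± 302 and 2203 ± 462, with replicate 3 the highest for both. The more abundant members with the same seed did not pass the test. miR-15b measured 23922, 24497 and 23281 in the day 30 libraries and 21054, 22892 and 22839 in those of day 210 (log2 -0.10 ± 0.11, adjusted p 0.579), and miR-16 at 8190.4, 5438 and 6962 (day 30) and 5921, 5428 and 11214 (day 210; log2 0.072 ± 0.26, adjusted p 0.882). The 3 day 210 values of miR-15b all lay under the 3 of day 30, while those of miR-16 overlapped. miR-195 and miR-497 stayed called under all 21 alternatives. The partner arm of miR-195, mir-195-p3, went the other way without a call (log2 -0.58 ± 0.65, adjusted p 0.595). The passenger arm of the miR-16 hairpin, mir-16-2-p3, fell to 0, but its day 30 values stood for only 6, 9 and 5 reads. mir-16-2-p3 stayed called under 8 of 19 alternatives. Left out in turn, day 30 replicates 1, 2 and 3, day 90 replicates 1, 2 and 3 and day 210 replicate 2 each ended the call (adjusted p 0.0578 to 0.109). It did not hold with a pseudocount of 5, no filter, the common floor and the replicate block (adjusted p 0.0601 to 0.896).

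Both arms of the miR-664 hairpin, which in human lies within a small nucleolar RNA, rose. miR-664-3p was found at 794, 588 and 664 in the younger libraries and 1727, 1819 and 1475 in the older (2.46-fold, log2 1.30 ± 0.17, adjusted p 0.00388), and miR-664-5p at 244, 213 and 219 (day 30) and 563, 473 and 289.6 (day 210) (1.89-fold, log2 0.92 ± 0.25, adjusted p 0.0480). In both arms day 210 replicate 3 was the lowest of its age, and in both the day 90 mean lay between the other ages. miR-664-3p stayed called under all 21 alternatives. miR-664-5p stayed called under 7 of 21 alternatives. This call was lost on leaving out day 30 replicates 1, 2 and 3, day 90 replicates 1, 2 and 3 and day 210 replicates 1 and 2 in turn (adjusted p 0.0698 to 0.149). Nor was it called with no filter, the common floor, libraries rescaled to the same sum, no mean-variance trend, only the ages compared and the replicate block (adjusted p 0.0535 to 0.128). Both arms of the mir-4332 hairpin and both of the miR-10386 hairpin were also called higher, and are described with the last group of risers.

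**Figure D2:**
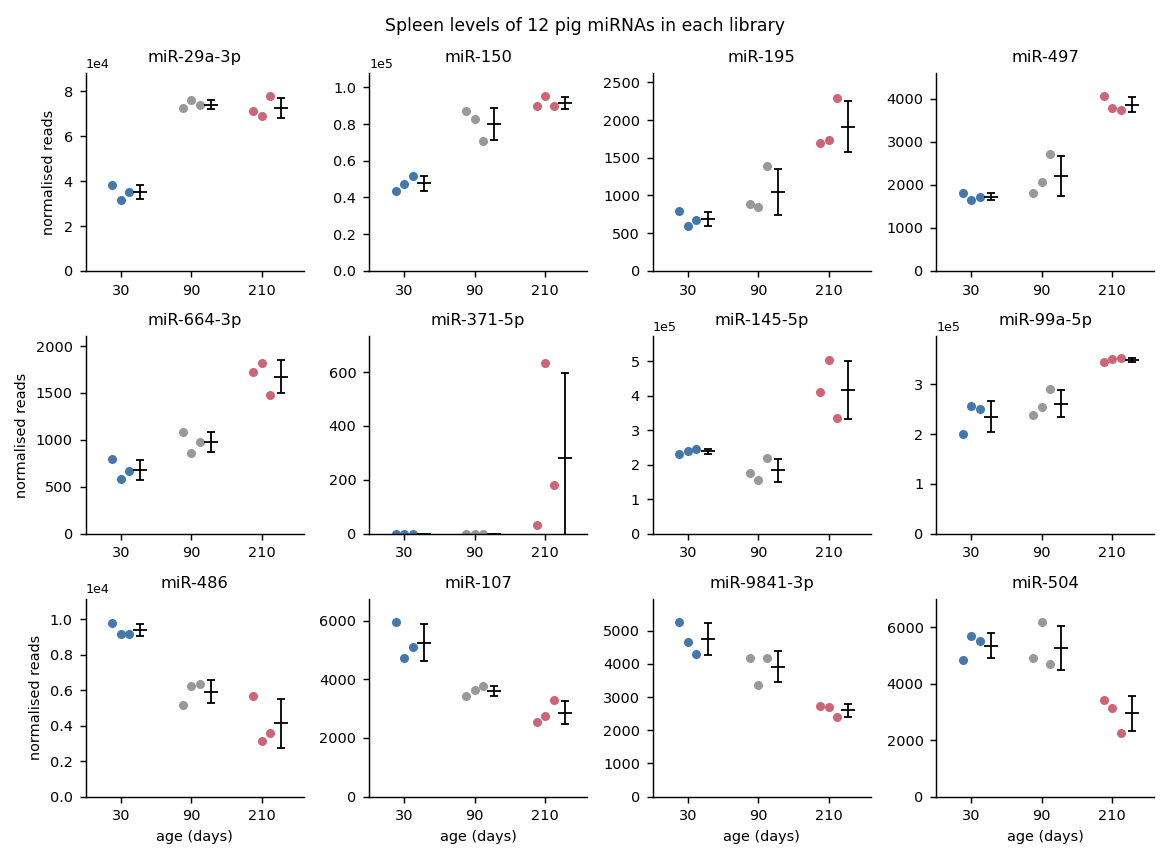
Normalised reads of 12 called pig miRNAs in each of the 9 libraries, by age in days, on linear axes from 0. Points are libraries and the bar beside them is the mean ± SD of 3 (the lower end for miR-371-5p at day 210 is cut off at 0). miR-29a-3p and miR-150 are near their day 210 level at day 90, while miR-497 and miR-664-3p lie between.

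Further risers were less abundant. miR-205, known from squamous epithelium, measured 18.7, 107 and 23.2 in the day 30 libraries and 305, 280.2 and 128 in those of day 210 (6.01-fold, log2 2.59 ± 0.63, adjusted p 0.0324). It did not overlap between ages, but day 30 replicate 2 was well above the other day 30 libraries and near day 210 replicate 3. The summed level of the 5 epithelial entries ran from 163 to 349.7 at day 30 and from 216 to 719 at day 210, so the sums overlapped. The part of epithelial RNA in the rise of miR-205 was not tested. miR-205 stayed called under 12 of 21 alternatives. Removal of day 30 replicates 1 and 3, day 90 replicates 1 and 3 and day 210 replicates 1 and 2 in turn ended it (adjusted p 0.0532 to 0.135). Uncalled too were the fits with the common floor, no mean-variance trend and only the ages compared (adjusted p 0.0662 to 0.0987). The miR-133b entry, of the striated muscle miRNAs, had values of 97.0, 121 and 116 in piglets of day 30, and of 241, 386 and 430.4 by day 210 (3.07-fold, log2 1.62 ± 0.36, adjusted p 0.0255). miR-133a-3p, the abundant near-copy with which its reads can be confused, was found at 6089.8, 8115 and 5604 in the younger libraries and 9687, 11119 and 7928 in the older (log2 0.54 ± 0.20, adjusted p 0.107). The summed level of the 6 striated muscle entries ran from 8063 to 10922 at day 30 and from 11682 to 15119.7 at day 210, with no overlap, and its part in the rise of miR-133b was not tested. miR-133b stayed called under 16 of 21 alternatives. The call needed each of day 30 replicates 1 and 3 and day 210 replicate 2 (adjusted p 0.0786 to 0.101). Other fits that missed the threshold were those with the common floor and no mean-variance trend (adjusted p 0.0512 to 0.0539).

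miR-194a-5p, which in human is encoded with miR-192 and miR-215 and is known from liver and gut epithelium, measured 938, 699 and 914 in the day 30 libraries and 1389, 1366 and 1613 in those of day 210 (1.72-fold, log2 0.78 ± 0.16, adjusted p 0.0203). miR-194a-5p stayed called under 17 of 21 alternatives, and not with day 30 replicate 1 left out (adjusted p 0.0634) and day 30 replicate 3 left out (adjusted p 0.0511). The threshold was also missed with libraries rescaled to the same sum and only the ages compared (adjusted p 0.0688 to 0.0841). miR-184, known from cornea and other epithelia, had values of 23.8, 73.4 and 49.96 in piglets of day 30, and of 121, 115 and 179 by day 210 (log2 1.59 ± 0.40, adjusted p 0.0378). Its values at day 90 were the highest of the 3 ages, at 379, 284 and 246. miR-184 stayed called under 8 of 21 alternatives. Fits that left out day 30 replicates 1 and 3, day 90 replicates 1, 2 and 3 and day 210 replicates 1, 2 and 3 in turn missed the threshold (adjusted p 0.0520 to 0.104). No call was made with the common floor, libraries rescaled to the same sum, no mean-variance trend, only the ages compared and the replicate block (adjusted p 0.0523 to 0.117). miR-24-2-5p, the passenger arm of a hairpin encoded beside miR-23a and miR-27a, had values of 82.3, 88.7 and 86.2 in piglets of day 30, and of 150.4, 186 and 162 by day 210 (1.92-fold, log2 0.94 ± 0.22, adjusted p 0.0303), while the abundant arm miR-24-3p had a log2 fold change of 0.14 ± 0.11 (adjusted p 0.462). miR-24-2-5p stayed called under 11 of 21 alternatives. It missed the threshold with day 30 replicates 1, 2 and 3, day 90 replicates 1 and 2 and day 210 replicate 2 left out in turn (adjusted p 0.0515 to 0.104). Further fits without the call were those with no filter, libraries rescaled to the same sum, only the ages compared and the replicate block (adjusted p 0.0519 to 0.0962). mir-338-p5, from a hairpin known from neurons and glia, was found at 17.8, 18.1 and 24.6 in the younger libraries and 57.6, 82.6 and 41.6 in the older (log2 1.50 ± 0.39, adjusted p 0.0410), and its partner arm miR-338 gave -0.35 ± 1.30 (adjusted p 0.886). mir-338-p5 stayed called under 10 of 21 alternatives. The libraries whose removal ended the call were day 30 replicates 1, 2 and 3, day 90 replicates 1, 2 and 3 and day 210 replicates 1 and 2 (adjusted p 0.0542 to 0.118). It did not hold with no filter, only the ages compared and the replicate block (adjusted p 0.0589 to 0.102).

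A last group of 6 risers holds those with the widest log2 spread at day 210. It also holds mir-4332-p3, the partner arm of mir-4332-p5, whose values differed more at day 30 than at day 210. miR-10386 was found at 40.7, 163 and 84.0 in the younger libraries and 391, 4396 and 35846 in the older (log2 5.57 ± 1.29, adjusted p 0.0266), and its partner arm mir-10386-p3 at 0, 16.2 and 0 (day 30) and 45.9, 874 and 6516 (day 210; log2 7.96 ± 1.74, adjusted p 0.0229). In both arms day 210 replicate 3 was the highest and replicate 1 the lowest, and replicate 1 lay closer to day 30 than to replicate 3 on the log2 scale. mir-4332-p5 measured 10.2, 92.5 and 28.2 in the day 30 libraries and 149, 387 and 1247 in those of day 210 (log2 3.74 ± 0.98, adjusted p 0.0438), again highest in replicate 3, while mir-4332-p3 had values of 221, 1041 and 486 in piglets of day 30, and of 1428, 1937 and 1579 by day 210 (log2 1.76 ± 0.44, adjusted p 0.0377), with replicate 2 the highest. mir-1285-p3 was found at 4085, 7011 and 4704 in the younger libraries and 7766, 13548 and 30458 in the older (log2 1.52 ± 0.41, adjusted p 0.0480). Its partner arm mir-1285-p5 gave 1.63 ± 0.47 and missed the threshold (adjusted p 0.0542). miR-371-5p, of a family otherwise described in germ cells and pluripotent cells, was listed at 0 in all day 30 and day 90 libraries and at 32.0, 634 and 182.4 at day 210 (adjusted p 0.00388), highest in replicate 2. The GC content of mir-4332-p5, mir-4332-p3 and mir-10386-p3 was 85.0%, 83.3% and 83.3%. Of 15 tested entries with a GC content of at least 70% these 3 were called higher and 1 was called lower. Among all tested pig miRNAs the shares were 5.42% and 5.17%. The summed level of all pig entries with such a GC content was 8138, 10261 and 8988 at day 30 and 9290, 11119 and 14921 at day 210, and day 210 replicate 3, the highest, was also the library of the lowest depth. These sums include the 3 risers themselves. Over the 15 tested entries the median log2 difference from the day 30 mean was -0.075, 0.032 and -0.62 in day 210 replicates 1, 2 and 3. For the 48 tested entries with a GC content of 60% to 70% it was -0.032, -0.045 and -0.69 in the same libraries. With the GC correction the log2 value was 2.58 (adjusted p 0.0272) for mir-4332-p5, 6.98 (adjusted p 0.0129) for mir-10386-p3 and 0.78 (adjusted p 0.0744) for mir-4332-p3, and the last was no longer called. The part of depth in these rises was not tested. miR-10386 stayed called under 15 of 21 alternatives. Left out in turn, day 30 replicates 1 and 3 and day 210 replicate 2 each ended the call (adjusted p 0.0786 to 0.104). Nor was it called with the common floor, no mean-variance trend and only the ages compared (adjusted p 0.0662 to 0.0962). mir-10386-p3 stayed called under 15 of 21 alternatives. This call was lost on leaving out day 30 replicates 1 and 3 and day 210 replicate 2 in turn (adjusted p 0.0777 to 0.102). Uncalled too were the fits with the common floor, no mean-variance trend and only the ages compared (adjusted p 0.0559 to 0.0715). mir-4332-p5 stayed called under 11 of 21 alternatives. Removal of day 30 replicates 1 and 3, day 90 replicates 1 and 3 and day 210 replicates 2 and 3 in turn ended it (adjusted p 0.0627 to 0.146). Other fits that missed the threshold were those with the common floor, no mean-variance trend, only the ages compared and the replicate block (adjusted p 0.0519 to 0.0895). mir-4332-p3 stayed called under 10 of 21 alternatives. The call needed each of day 30 replicates 1 and 3, day 90 replicates 1, 2 and 3 and day 210 replicates 1 and 2 (adjusted p 0.0546 to 0.130). The threshold was also missed with the GC correction (log2 0.78, adjusted p 0.0744) and with the common floor, no mean-variance trend and only the ages compared (adjusted p 0.0774 to 0.117). mir-1285-p3 stayed called under 10 of 21 alternatives. Fits that left out day 30 replicates 1, 2 and 3, day 90 replicates 1, 2 and 3 and day 210 replicate 2 in turn missed the threshold (adjusted p 0.0507 to 0.150). No call was made with the common floor, libraries rescaled to the same sum, no mean-variance trend and only the ages compared (adjusted p 0.0638 to 0.126). mir-1285-p3 had a log2 value of 1.0005 without day 210 replicate 3 (still called). The fits without a day 210 library could not test miR-371-5p, which then fell below the filter, and it stayed called under the 18 alternatives that did. As only its day 210 values took it past the filter, these calls are no separate support for its rise.

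**Figure D3:**
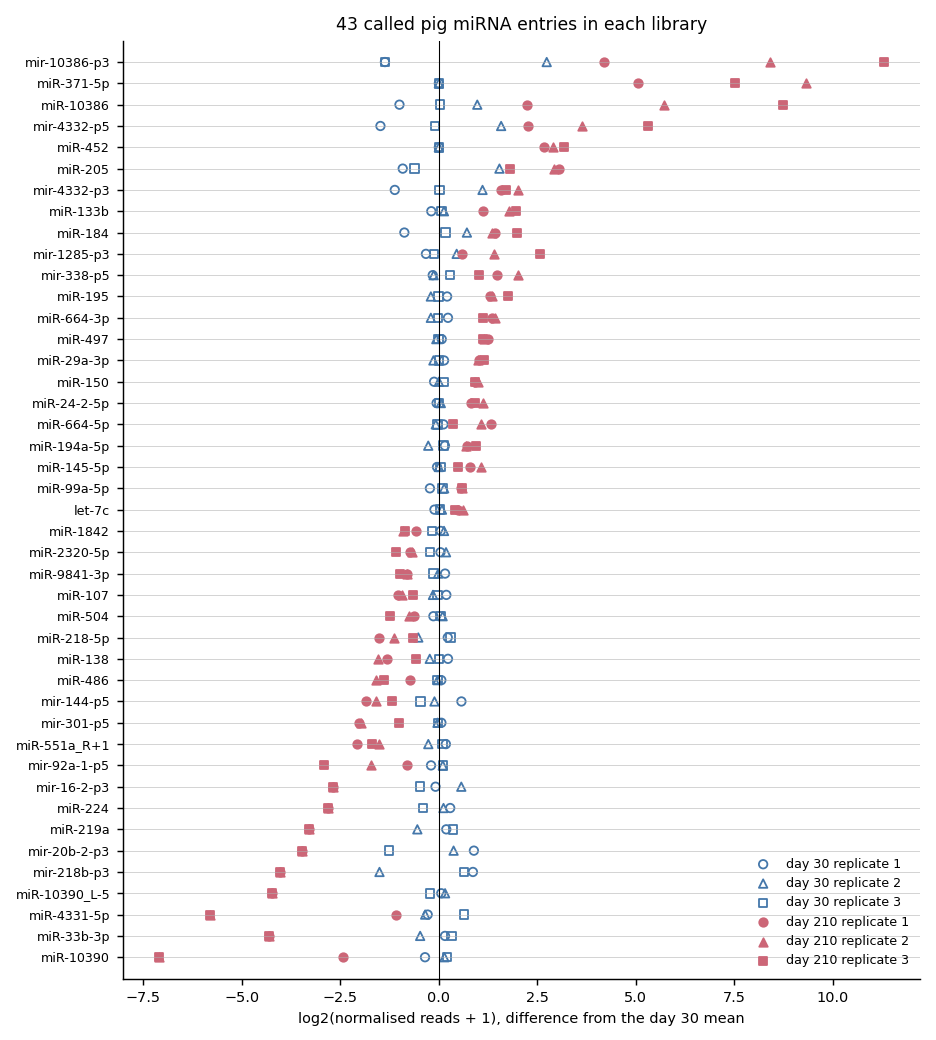
The 43 called entries in order of log2 fold change, with each of the 6 libraries as its log2(normalised reads + 1) minus the day 30 mean (open blue for day 30, filled red for day 210, a symbol for each replicate). miR-10386, mir-10386-p3 and mir-4332-p5 spread over several log2 units at day 210, while miR-29a-3p, miR-150, miR-497 and miR-99a-5p lie in tight sets.

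Among the fallers, miR-486, a miRNA of maturing red cells, measured 9799, 9177 and 9201 in the day 30 libraries and 5694, 3117 and 3591 in those of day 210. It fell by 1.23 ± 0.21 in log2 units (limma adjusted p 0.00873), and day 210 replicate 1 lay between the other day 210 libraries and day 30. miR-486 stayed called under 19 of 21 alternatives, and not with day 30 replicate 1 left out (adjusted p 0.0538). Further fits without the call were those with only the ages compared (adjusted p 0.0525). mir-144-p5, cut from the hairpin encoded beside miR-451, measured 148, 91.6 and 71.7 in the day 30 libraries and 26.7, 32.3 and 43.2 in those of day 210 and fell by 1.54 ± 0.36 (adjusted p 0.0266). Its partner arm miR-144 gave -1.23 ± 0.35 (adjusted p 0.0542). mir-144-p5 stayed called under 15 of 21 alternatives. It missed the threshold with day 30 replicates 1 and 2, day 90 replicate 1 and day 210 replicate 2 left out in turn (adjusted p 0.0507 to 0.108). It did not hold with only the ages compared and the replicate block (adjusted p 0.0519 to 0.0895). miR-451, the most abundant of the 4 erythroid entries, gave 0.029 ± 0.49 (adjusted p 0.978), and its highest library was day 210 replicate 3 at 20851. The erythroid list thus had 0 of 4 tested entries called higher and 2 called lower, against 5.42% and 5.17% of all tested pig miRNAs. Both arms of the miR-144 hairpin are among the 4. The list's median was -1.23, against -0.14 in all tested pig miRNAs (over the 21 alternatives -1.46 to -0.95 with 0 called higher and 0 to 3 lower). Its summed level was 23770, 15455 and 18137 at day 30 and 13294, 8179 and 24509 at day 210, so the sums overlapped.

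miR-107, which in human lies in an intron of a pantothenate kinase gene, had values of 5963, 4715 and 5089 in piglets of day 30, and of 2539.7, 2754 and 3303 by day 210. Its fall was by 0.88 ± 0.15 in log2 units (limma adjusted p 0.00873). miR-103, with the same seed, had values of 36710.4, 29847 and 30532 in piglets of day 30, and of 23046, 23612 and 26476 by day 210 and missed the threshold (log2 -0.41 ± 0.12, adjusted p 0.0625), although its libraries did not overlap. Reads of either could carry the letters of the miR-107 entry. miR-107 stayed called under 19 of 21 alternatives, and not with day 30 replicate 1 left out (adjusted p 0.0538). Nor was it called with only the ages compared (adjusted p 0.0525). miR-504 was found at 4836, 5690.3 and 5491 in the younger libraries and 3428, 3145 and 2259 in the older, and fell by 0.88 ± 0.18 (adjusted p 0.0203). At day 210 replicate 3 was the lowest. miR-504 stayed called under 16 of 21 alternatives. The libraries whose removal ended the call were day 30 replicates 1, 2 and 3 (adjusted p 0.0507 to 0.0753). Uncalled too were the fits with no mean-variance trend and only the ages compared (adjusted p 0.0593 to 0.0715). miR-504 had a log2 value of -0.48 with the GC correction (still called). miR-9841-3p, for which no role is given here, measured 5275, 4673 and 4295 in the day 30 libraries and 2719, 2702 and 2384 in those of day 210 and fell by 0.86 ± 0.15 (adjusted p 0.00873). miR-9841-3p stayed called under 19 of 21 alternatives, and not with day 30 replicate 1 left out (adjusted p 0.0538). Other fits that missed the threshold were those with the GC correction (log2 -0.49, adjusted p 0.107).

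For miR-2320-5p and miR-1842 no role is given here. miR-2320-5p was found at 2066, 2278 and 1721 in the younger libraries and 1205, 1255 and 947 in the older and fell by 0.83 ± 0.18 (adjusted p 0.0229); its partner miR-2320-3p gave -0.56 ± 0.22 (adjusted p 0.128). miR-2320-5p stayed called under 17 of 21 alternatives, and not with day 30 replicate 1 left out (adjusted p 0.0932) and day 30 replicate 2 left out (adjusted p 0.0641). The threshold was also missed with no mean-variance trend and only the ages compared (adjusted p 0.0587 to 0.0715). miR-1842 had values of 1403, 1486 and 1198 in piglets of day 30, and of 900.3, 726 and 741 by day 210 and fell by 0.79 ± 0.16 (adjusted p 0.0181). miR-1842 stayed called under 17 of 21 alternatives, and not with day 30 replicate 1 left out (adjusted p 0.0815) and day 210 replicate 2 left out (adjusted p 0.0625). No call was made with the GC correction (log2 -0.47, adjusted p 0.120) and with only the ages compared (adjusted p 0.0715). Further fallers were less abundant. miR-138, known from neurons, was found at 433, 314 and 369 in the younger libraries and 146, 125 and 248 in the older (log2 -1.15 ± 0.27, adjusted p 0.0303), with day 210 replicate 3 nearest to day 30, and its partner mir-138-p3 gave -0.90 ± 0.53 (adjusted p 0.298). miR-138 stayed called under 10 of 21 alternatives. Left out in turn, day 30 replicates 1 and 3, day 90 replicates 1, 2 and 3 and day 210 replicates 1 and 2 each ended the call (adjusted p 0.0507 to 0.114). Further fits without the call were those with the GC correction (log2 -0.74, adjusted p 0.186) and with the common floor, no mean-variance trend and only the ages compared (adjusted p 0.0527 to 0.103). miR-218-5p, from introns of the SLIT genes in human, measured 440.5, 262 and 463 in the day 30 libraries and 129.6, 169.8 and 239 in those of day 210 (log2 -1.11 ± 0.30, adjusted p 0.0470), and day 30 replicate 2 came close to day 210 replicate 3. miR-218-5p stayed called under 11 of 21 alternatives. This call was lost on leaving out day 30 replicates 1 and 3, day 90 replicates 1, 2 and 3 and day 210 replicates 1 and 2 in turn (adjusted p 0.0683 to 0.152). It did not hold with the common floor, no mean-variance trend and only the ages compared (adjusted p 0.0662 to 0.121). The 10 neural entries summed to 8179.5 to 8738 at day 30 and 7026 to 9106 at day 210, which overlapped, and their part in these falls was not tested.

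mir-92a-1-p5, the passenger arm of a miR-17-92 hairpin, measured 142, 175 and 174 in the day 30 libraries and 91.7, 49.1 and 20.8 in those of day 210 (log2 -1.81 ± 0.46, adjusted p 0.0377), while miR-92a, the abundant arm, gave -0.083 ± 0.21 (adjusted p 0.812). Its day 210 values were lowest in replicate 3, the library of the lowest depth. mir-92a-1-p5 stayed called under 10 of 21 alternatives. Removal of day 30 replicates 1, 2 and 3, day 90 replicates 1, 2 and 3 and day 210 replicate 2 in turn ended it (adjusted p 0.0558 to 0.135). Nor was it called with the common floor, no mean-variance trend, only the ages compared and the replicate block (adjusted p 0.0519 to 0.117). miR-551a_R+1 had values of 90.0, 65.8 and 84.7 in piglets of day 30, and of 18.1, 27.1 and 24.002 by day 210 (log2 -1.76 ± 0.32, adjusted p 0.0137). miR-551a_R+1 stayed called under 18 of 21 alternatives, and not with day 30 replicate 1 left out (adjusted p 0.0688) and day 30 replicate 3 left out (adjusted p 0.0511). Uncalled too were the fits with only the ages compared (adjusted p 0.0529). mir-301-p5, from a hairpin of the miR-130 family, was found at 34.8, 32.4 and 32.6 in the younger libraries and 7.47, 7.75 and 16.001 in the older (log2 -1.67 ± 0.43, adjusted p 0.0414), and its day 210 values stood for 7, 6 and 10 reads. miR-301 itself was listed at 0 in every day 210 library and at a mean of 6.99 at day 30 (adjusted p 0.0871). mir-301-p5 stayed called under 10 of 21 alternatives. The call needed each of day 30 replicates 1, 2 and 3, day 90 replicates 1, 2 and 3 and day 210 replicates 1 and 2 (adjusted p 0.0558 to 0.130). Other fits that missed the threshold were those with no filter, only the ages compared and the replicate block (adjusted p 0.0601 to 0.117).

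Most of the remaining calls rest on few reads, on the scale where the commonest low value of a library is 5 reads. miR-33b-3p, whose hairpin lies in human inside SREBF1, a gene of sterol control, stood for 25, 14 and 33 reads at day 30 and was listed at 0 at day 210 (adjusted p 0.00388). The same absence at day 210 was seen for mir-20b-2-p3 (23, 14 and 5 reads at first, adjusted p 0.0229), mir-218b-p3 (from 34, 5 and 34 reads, adjusted p 0.0152), miR-219a (12, 6 and 16 reads, adjusted p 0.0152) and miR-10390_L-5 (22, 21 and 21 reads, adjusted p 0.0377). With miR-33b-3p, mir-16-2-p3 and miR-224 this made 7 of the 21 falls. The longest form, miR-10390, had values of 107, 150.7 and 159 in piglets of day 30, and of 24.5, 0 and 0 by day 210 (adjusted p 0.0152), and miR-4331-5p at 45.4, 43.4 and 86.5 (day 30) and 25.6, 0 and 0 (day 210; adjusted p 0.0412). In both, day 210 replicate 1, the deepest library of that age, was the only one above 0. miR-224 and miR-452, which in human share an intron on the X chromosome, went opposite ways at the edge of detection. miR-224 stood for 9, 7 and 6 reads at day 30 and 0 at day 210 (adjusted p 0.0162). miR-452 was listed at 0 at day 30 and stood for 5 reads in each day 210 library (adjusted p 0.0179). At day 90 they stood for 34, 50 and 44 reads and 21, 19 and 18 reads. With every value below a common floor (5 reads of the shallowest library) raised to it, the calls of miR-33b-3p, mir-20b-2-p3, mir-218b-p3, miR-219a, miR-10390_L-5, mir-16-2-p3, miR-224 and miR-452 ended, and the difference of miR-224 and of miR-452 became 0. Those of miR-10390 and miR-4331-5p stayed. miR-33b-3p stayed called under 20 of 21 alternatives. The threshold was missed with the common floor (adjusted p 0.171). mir-20b-2-p3 stayed called under 15 of 20 alternatives. Fits that left out day 30 replicates 1 and 2 and day 210 replicate 2 in turn missed the threshold (adjusted p 0.0621 to 0.104). No call was made with a pseudocount of 5 and the common floor (adjusted p 0.0608 to 0.470). mir-218b-p3 stayed called under 16 of 19 alternatives, and not with day 30 replicate 1 left out (adjusted p 0.0896) and day 30 replicate 3 left out (adjusted p 0.0559). Further fits without the call were those with the common floor (adjusted p 0.148). miR-219a stayed called under 17 of 21 alternatives, and not with day 30 replicate 1 left out (adjusted p 0.0756) and day 30 replicate 3 left out (adjusted p 0.0511). It did not hold with the common floor and only the ages compared (adjusted p 0.0962 to 0.570). miR-10390_L-5 stayed called under 12 of 21 alternatives. It missed the threshold with day 30 replicates 1, 2 and 3, day 90 replicate 1 and day 210 replicates 1 and 2 left out in turn (adjusted p 0.0591 to 0.116). Nor was it called with the common floor, no mean-variance trend and the replicate block (adjusted p 0.0519 to 0.156). miR-10390 stayed called under 18 of 21 alternatives, and not with day 30 replicate 1 left out (adjusted p 0.0635) and day 30 replicate 3 left out (adjusted p 0.0559). Uncalled too were the fits with only the ages compared (adjusted p 0.0715). miR-4331-5p stayed called under 10 of 21 alternatives. The libraries whose removal ended the call were day 30 replicates 1, 2 and 3, day 90 replicates 1, 2 and 3 and day 210 replicates 2 and 3 (adjusted p 0.0608 to 0.149). Other fits that missed the threshold were those with no mean-variance trend, only the ages compared and the replicate block (adjusted p 0.0519 to 0.121). miR-224 stayed called under 17 of 20 alternatives, and not with day 30 replicate 1 left out (adjusted p 0.0824). The threshold was also missed with a pseudocount of 5 and the common floor (adjusted p 0.0549 to 1). miR-452 stayed called under 17 of 21 alternatives, and not with day 30 replicate 1 left out (adjusted p 0.0635) and day 210 replicate 2 left out (adjusted p 0.0625). No call was made with the common floor and only the ages compared (adjusted p 0.124 to 1).

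Just beyond the threshold stood miR-181c, of a family known for tuning T cell signalling, at 1656, 1465 and 1426 (day 30) and 2006, 2239 and 2237 (day 210; log2 0.51 ± 0.14, adjusted p 0.0537). miR-26b-5p, of the family of the most abundant spleen miRNA, measured 21465, 18679.5 and 20249 in the day 30 libraries and 24534, 27042 and 35025 in those of day 210 (log2 0.51 ± 0.14, adjusted p 0.0542). Both sets of libraries did not overlap, all higher at day 210. miR-182, of a cluster known from sensory and activated immune cells, had values of 1020.1, 1022 and 913 in piglets of day 30, and of 606, 429 and 634 by day 210 (log2 -0.84 ± 0.25, adjusted p 0.0625), with no overlap and lower at day 210. The endothelial miRNA entry miR-126-3p_R-1 was found at 61699, 48773 and 59398 in the younger libraries and 36740.4, 41098 and 43836 in the older (log2 -0.48 ± 0.14, adjusted p 0.0625), again lower without overlap. Adjusted p just under the threshold were 0.0480 for miR-664-5p and mir-1285-p3.

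The lists of cell types and families were chosen with earlier results of these data known, and cover both arms and all forms in the table. Their calls are set beside the background of 5.42% of tested pig miRNAs called higher and 5.17% called lower, and their medians beside -0.14. For all tested pig miRNAs the median ran from -0.38 with libraries rescaled to the same sum to 0.15 with the GC correction. A median is also given with a library left out where that turned its sign or moved it over 1.5 times (sign only where it was under 0.1 in size). Of 3 mature lymphocyte entries 1, miR-150, was called higher and 0 lower (median 0.33, over the 21 alternatives 0.10 to 0.68 with 1 to 2 called higher and 0 to 1 lower). miR-342 measured 58332, 59775 and 63137 in the day 30 libraries and 78069.6, 74842 and 74558 in those of day 210 (log2 0.33 ± 0.12, adjusted p 0.0920) and its partner arm mir-342-p5 at 1076, 957 and 978 (day 30) and 878, 652 and 666 (day 210; log2 -0.47 ± 0.18, adjusted p 0.128). The main arm was higher and the partner lower in all day 210 libraries, and neither passed the test. Of 4 immune activation entries 0 were called (median 0.24, -0.039 if day 30 replicate 1 is left out, 0.10 if day 30 replicate 2 is left out, 0.44 if day 30 replicate 3 is left out, 0.55 if day 210 replicate 2 is left out, -0.045 if day 210 replicate 3 is left out, over the 21 alternatives -0.27 to 0.55 with 0 to 1 called higher and 0 to 1 lower). miR-155-5p had values of 3070.4, 2497 and 2949.5 in piglets of day 30, and of 4039, 3119 and 5896 by day 210 (log2 0.57 ± 0.22, adjusted p 0.124), and the most abundant member miR-146a-5p gave 0.17 ± 0.22 (adjusted p 0.639). In the miR-181 family 0 of 7 were called (median -0.13, -0.084 if day 30 replicate 1 is left out, -0.030 if day 210 replicate 1 is left out, over the 21 alternatives -0.36 to 0.25 with 0 to 2 called higher and 0 to 1 lower), and its most abundant member miR-181a gave 0.052 ± 0.13 (adjusted p 0.824). Of the 4 pan-hematopoietic and myeloid entries 0 were called (median -0.23, 0.047 if day 30 replicate 1 is left out, -0.47 if day 30 replicate 2 is left out, -0.12 if day 210 replicate 2 is left out, -0.37 if day 210 replicate 3 is left out, over the 21 alternatives -0.47 to 0.047 with 0 called higher and 0 to 1 lower). mir-142-p5 gave 0.14 ± 0.28 (adjusted p 0.779) and mir-223-p5 -2.52 ± 1.16 (adjusted p 0.180).

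In the stroma, 0 of 3 endothelial entries of miR-126 were called, and all 3 had negative log2 fold changes (median -0.48, over the 21 alternatives -0.71 to -0.24 with 0 called higher and 0 to 1 lower). Of 4 smooth muscle entries miR-145-5p was called higher and 0 lower (median 0.32, over the 21 alternatives 0.093 to 0.56 with 0 to 3 called higher and 0 lower). miR-143-3p was found at 802412, 800782 and 799952 in the younger libraries and 849972, 1014114 and 1133699 in the older (log2 0.31 ± 0.15, adjusted p 0.210), all day 210 libraries above day 30. The smooth muscle entries together summed to 1046668 to 1059875 at day 30 and 1274003 to 1532619.9 at day 210. Of 5 fibroblast entries 0 were called (median -0.19, -0.30 if day 30 replicate 1 is left out, -0.072 if day 30 replicate 3 is left out, over the 21 alternatives -0.42 to 0.16 with 0 called higher and 0 lower), with the abundant miR-199a-5p at -0.19 ± 0.17 (adjusted p 0.511) and miR-199b-5p at -0.82 ± 0.36 (adjusted p 0.169). Of 6 striated muscle entries 1 was called higher and 0 lower (median 0.37, over the 21 alternatives 0.14 to 0.56 with 0 to 2 called higher and 0 lower). Of the epithelial entries 3 were tested (median 0.0050, -0.22 if day 30 replicate 1 is left out, -0.13 if day 30 replicate 2 is left out, -0.54 if day 210 replicate 1 is left out, over the 21 alternatives -0.54 to 0.67 with 0 to 1 called higher and 0 lower), with miR-205 called higher and the most abundant, miR-200b, at 0.0050 ± 0.51 (adjusted p 0.995). Of 4 tested liver, pancreas and gut entries 1 was called higher and 0 lower (median 0.22, 0.34 if day 210 replicate 2 is left out, over the 21 alternatives -0.011 to 0.47 with 0 to 2 called higher and 0 lower), and of 9 tested neural entries 0 were called higher and 2 lower (median -0.37, -0.15 if day 30 replicate 3 is left out, over the 21 alternatives -0.60 to -0.10 with 0 to 2 called higher and 0 to 3 lower), with the abundant miR-128 at -0.37 ± 0.14 (adjusted p 0.109). miR-129a-3p, of the same list, gave 1.07 ± 0.32 (adjusted p 0.0625), higher at day 210 without overlap.

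Among the gene families and clusters, the miR-17-92 cluster with its paralogs, known for driving proliferation of lymphocyte precursors, had 0 of 19 tested entries called higher and 2 lower, both passenger arms. Of the 19, 18 had negative log2 fold changes, against 240 of all 406, and the median was -0.59, -0.30 if day 210 replicate 2 is left out, over the 21 alternatives -0.88 to -0.24 with 0 called higher and 0 to 8 lower. Its lower calls were 7 without day 210 replicate 3, 8 with library weights, and 0 without day 30 replicate 1 and 0 without day 210 replicate 2. miR-17-5p measured 11631, 8689 and 10198 in the day 30 libraries and 6690.2, 5648 and 10102 in those of day 210 (log2 -0.48 ± 0.21, adjusted p 0.159), and miR-20a-5p at 4727, 2773 and 3733 (day 30) and 2065, 1748 and 3419 (day 210; log2 -0.66 ± 0.27, adjusted p 0.139). For both, day 210 replicate 2 was the lowest of its age and the ages overlapped. In the imprinted DLK1-DIO3 cluster 0 of 22 tested entries were called, 12 with positive and 10 with negative log2 fold changes (median 0.020, -0.41 if day 30 replicate 2 is left out, -0.038 if day 30 replicate 3 is left out, -0.43 if day 210 replicate 3 is left out, over the 21 alternatives -0.43 to 0.27 with 0 to 2 called higher and 0 to 1 lower). miR-127, the most abundant, gave 0.54 ± 0.23 (adjusted p 0.162) and miR-323 -0.79 ± 0.26 (adjusted p 0.0740). In the X-linked cluster with miR-424, miR-542, miR-450 and miR-503, 0 of 8 were called (median -0.46, over the 21 alternatives -0.69 to -0.18 with 0 to 1 called higher and 0 to 1 lower), with miR-503 at 36.5, 70.6 and 63.7 (day 30) and 17.1, 16.8 and 25.6 (day 210; log2 -1.45 ± 0.45, adjusted p 0.0681) and miR-450c-5p at -0.38 ± 0.23 (adjusted p 0.298). The miR-15/16 family had 2 of 10 called higher and 1 lower (median -0.14, -0.026 if day 30 replicate 1 is left out, -0.048 if day 210 replicate 2 is left out, over the 21 alternatives -0.37 to 0.094 with 2 called higher and 0 to 1 lower), the miR-29 family 1 of 6 higher and 0 lower (median 0.53, 1.02 if day 30 replicate 1 is left out, 0.25 if day 210 replicate 3 is left out, over the 21 alternatives 0.25 to 1.02 with 1 to 3 called higher and 0 lower), and the let-7 family 1 of 17 higher and 0 lower (median -0.20, -0.11 if day 210 replicate 1 is left out, -0.090 if day 210 replicate 2 is left out, over the 21 alternatives -0.43 to 0.13 with 0 to 1 called higher and 0 to 3 lower), with its most abundant member let-7g at 0.15 ± 0.13 (adjusted p 0.520). The miR-99/100 and miR-125 families had 1 of 15 called higher and 0 lower (median 0.36, 0.050 if day 30 replicate 1 is left out, 0.62 if day 30 replicate 2 is left out, 0.20 if day 210 replicate 1 is left out, 0.57 if day 210 replicate 3 is left out, over the 21 alternatives 0.050 to 0.64 with 0 to 5 called higher and 0 lower). miR-125b had values of 150639, 217006 and 211996 in piglets of day 30, and of 432227, 356119 and 174701 by day 210 (log2 0.65 ± 0.32, adjusted p 0.209). Its day 210 replicate 3 lay within the day 30 range and replicates 1 and 2 far above it.

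No member was called in the miR-30 family (11 tested, median 0.063, -0.087 if day 210 replicate 2 is left out, over the 21 alternatives -0.17 to 0.36 with 0 to 3 called higher and 0 to 1 lower), where miR-30d gave -0.15 ± 0.13 (adjusted p 0.497) and miR-30e-3p 0.31 ± 0.14 (adjusted p 0.180). None was called in the miR-26 family (4 tested, median 0.15, 0.27 if day 210 replicate 3 is left out, over the 21 alternatives -0.078 to 0.43 with 0 to 2 called higher and 0 lower), with miR-26a, the most abundant spleen miRNA, at 0.22 ± 0.11 (adjusted p 0.209). In the family of miR-34 and miR-449 0 of 3 were called (median 0.55, over the 21 alternatives 0.32 to 0.79 with 0 called higher and 0 lower), with miR-34a at -0.27 ± 0.36 (adjusted p 0.652) and miR-34c at 0.55 ± 0.25 (adjusted p 0.169). The Hox-embedded miR-10 and miR-196 had 0 of 7 called (median -0.49, -0.16 if day 30 replicate 2 is left out, -0.21 if day 210 replicate 1 is left out, -0.26 if day 210 replicate 2 is left out, over the 21 alternatives -0.72 to -0.16 with 0 called higher and 0 lower), and miR-10a-5p gave 0.29 ± 0.17 (adjusted p 0.285). In the miR-23/24/27 clusters 1 of 11 was called higher and 0 lower (median 0.024, -0.062 if day 30 replicate 3 is left out, over the 21 alternatives -0.21 to 0.42 with 0 to 3 called higher and 0 to 3 lower), with miR-27b-3p at 0.014 ± 0.15 (adjusted p 0.961). All 6 members of the miR-148 and miR-152 family had negative log2 fold changes, with 0 called (median -0.14, -0.070 if day 210 replicate 2 is left out, -0.30 if day 210 replicate 3 is left out, over the 21 alternatives -0.38 to 0.11 with 0 called higher and 0 to 1 lower) and miR-148b-3p at -0.24 ± 0.11 (adjusted p 0.169). miR-221 and miR-222 had 0 of 3 called (median -0.19, -0.11 if day 30 replicate 3 is left out, -0.12 if day 210 replicate 2 is left out, -0.11 if day 210 replicate 3 is left out, over the 21 alternatives -0.42 to 0.085 with 0 called higher and 0 to 1 lower), with miR-221-3p at -0.19 ± 0.12 (adjusted p 0.347), and the cluster of miR-132 and miR-212 0 of 4 (median -0.33, -0.062 if day 210 replicate 1 is left out, -0.20 if day 210 replicate 3 is left out, over the 21 alternatives -0.56 to -0.0053 with 0 called higher and 0 lower), with miR-132 at 0.19 ± 0.28 (adjusted p 0.689) and miR-212 at -0.48 ± 0.32 (adjusted p 0.363). The cluster of miR-183, miR-96 and miR-182 had 0 of 3 called (median -0.84, over the 21 alternatives -1.07 to -0.61 with 0 called higher and 0 to 2 lower). The family of miR-28, miR-151 and miR-708 had 0 of 6 (median 0.18, 0.11 if day 210 replicate 3 is left out, over the 21 alternatives -0.056 to 0.45 with 0 to 2 called higher and 0 to 1 lower), with miR-151-5p at -0.055 ± 0.15 (adjusted p 0.840) and miR-708-3p at 1.60 ± 0.54 (adjusted p 0.0871). The X-linked cluster of miR-500 and miR-532 had 0 of 7 (median -0.14, -0.066 if day 30 replicate 1 is left out, -0.054 if day 210 replicate 1 is left out, -0.27 if day 210 replicate 2 is left out, -0.25 if day 210 replicate 3 is left out, over the 21 alternatives -0.37 to 0.21 with 0 called higher and 0 lower), with miR-532-5p at -0.24 ± 0.18 (adjusted p 0.404) and miR-660 at -0.47 ± 0.22 (adjusted p 0.186).

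**Figure D4:**
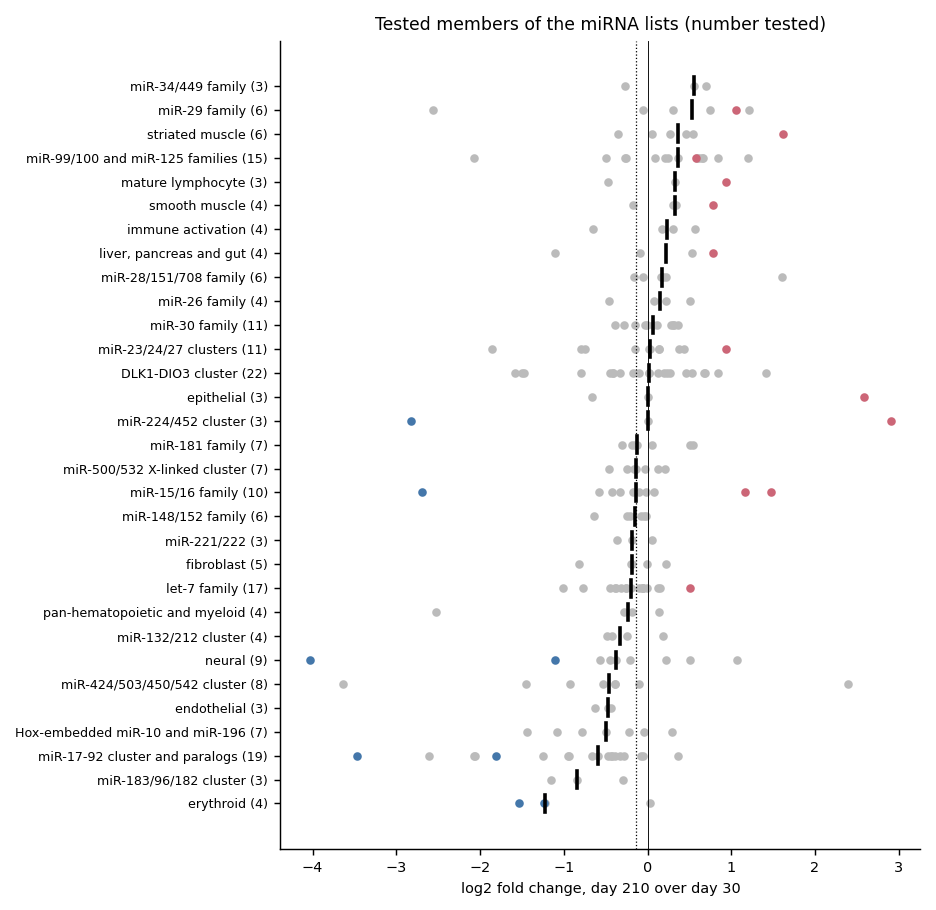
Log2 fold changes (day 210 over day 30) of the tested members of each list with at least 3 tested (number in brackets), with called members in red (higher) or blue (lower), a bar at the list's median and a dotted line at the median of all tested pig miRNAs (-0.14). The erythroid list has the lowest median (-1.23) and holds 2 of the falls.

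Among the 10 most abundant pig miRNAs over both ages, miR-145-5p and miR-99a-5p were called and the others were not. The first 5 places (miR-26a, miR-143-3p, miR-191, miR-145-5p and miR-99a-5p) were the same at both ages. miR-191, encoded with miR-425, was found at 440844, 488137 and 427822 in the younger libraries and 614863, 628717 and 435872 in the older (log2 0.29 ± 0.16, adjusted p 0.258), and the ages overlapped. miR-339_R+1 gave 0.085 ± 0.18 (adjusted p 0.797) and miR-125a_R-1 0.21 ± 0.33 (adjusted p 0.710). miR-26a held 13.7 ± 0.714% of all values at day 30 and 13.7 ± 1.17% at day 210, while its values were higher in all 3 day 210 libraries. The values of the pig miRNAs summed to 6124398, 6544833 and 6436735 at day 30 and 7441853, 7833562 and 7146883 at day 210.

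Set beside the day 90 means, 27 of the 43 called entries had a day 90 mean between those of the other ages (12 of 22 risers and 15 of 21 fallers) and 16 had one outside. Among the risers outside, miR-145-5p was lowest at day 90, and miR-29a-3p and miR-184 were highest then.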

How the data were processed

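Total RNA was extracted with Trizol, libraries were prepared with the TruSeq Small RNA kit, and reads were cleaned with the program ACGT101-miR, per the labels' protocols. The miRNA database, aligner, build and scaling method: not given in the sources used here. No positions are therefore printed. The deposited values are, per the file headers, normalised read numbers (a signal scaled by the authors), not counts.

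Of 980 entries, 5 with the same values as an earlier entry of equal name or sequence were dropped. Depth was estimated by taking the commonest low value of a library as 5 reads. On that scale between 90.4% and 95.7% of the checked values above 0 were whole (tolerance 0.01). Between 99.8% and 100% were whole or simple fractions of a read. As not all were whole, no count test was used. Precision is that of the spread between libraries.

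limma 3.58.1 (R 4.3.3) was run on log2(value + 1) of all 9 libraries, with 1 coefficient for each age and a mean-variance trend. Entries with 5 or more in 3 libraries were tested, at a Benjamini-Hochberg adjusted p under 0.05. Fold changes are on the log2(value + 1) scale and are given ± SE. The scale understates the ratio of the listed values of low entries. Where values are listed at 0, which can hide a few reads, it can overstate the change. With the common floor the log2 value of miR-33b-3p went from -4.32 to -1.15, and that of mir-10386-p3 from 7.96 to 5.85. Single values were compared by exact two-sided permutation tests (scipy 1.17.1). The procedure was tested on simulated data.

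Named are all called pig miRNAs, the most abundant member and that with the smallest p of each list, the uncalled partner arms, and the 10 most abundant. Uncalled arms and forms not described above had log2 values of -0.43 (mir-16-1-p3), -0.33 (miR-20b), 0.024 (miR-24-1-5p) and -2.61 (mir-92a-2-p5). Those of miR-10390_L-3 and mir-452-p3 were -3.06 and 0. Further uncalled ones were chosen after their values were seen. Members and lists were chosen with earlier results of these data known. In all 21 alternatives were run: another pseudocount, other filters, a common floor, rescalings, other fits, a GC correction, the replicate number as a block, and each library left out.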

Additional observations from a re-analysis of the deposited data

How the results depend on the processing

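The count of 43 called pig miRNAs (22 higher, 21 lower) was 28 (13 higher) with the common floor, 72 (57 lower) with libraries rescaled to the same sum, 10 (7 and 3) with only the ages compared, 84 (38 and 46) with library weights and 83 (63 higher) with the GC correction, and the higher calls were 11 without the mean-variance trend. Fits that left out 1 library gave 7 to 77 calls, 6 to 34 of them higher and 1 to 43 lower. Of the 43 calls 7 were shared by the fit without day 30 replicate 1 and 39 by the fit without day 210 replicate 3. With only the ages compared the filter counted no day 90 library. It then passed 392 pig entries, and 4 of the 43 calls were not tested. The cause was not tested.

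The other alternatives stayed within 1.5 times of the reported counts. With the replicate number as a block 33 were called (18 higher, 15 lower), 32 of them shared. Deviations of same-numbered libraries from their age means correlated at 0.0184, 0.188 and 0.0551. Day 30 replicate 1 correlated best with day 210 replicate 3 (0.0986), and day 30 replicates 2 and 3 with their own numbers. These values do not settle whether the numbers pair the libraries, and the reported fit does not pair them.

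The difference in the value-weighted GC content of pig miRNAs ran from -0.140 to 0.402 percentage points when 1 library was left out and changed sign. The difference in pig miRNA entries above 0 went from -29.3 to -12.3 with the common floor (exact permutation p 0.2), and that in the share of the 10 most abundant kept its sign. Depth limits the scarce entries: 5 reads were worth a value of 3.62 in day 30 replicate 3 and 8.0006 in day 210 replicate 3, and a listed 0 covers a wider range in the latter.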
